A study of Mus musculus with 6 samples.

Results

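The genes described here encode the constitutive subunits of the proteasome, the protease complex that breaks down ubiquitin-tagged proteins. They are 31 of the 22863 genes tested, and they were chosen by gene name: a probe belongs to them when its transcript accession maps to one of the 31 symbols. The genes tested, and every share of all genes below, include transcripts without a gene symbol, counted under their annotated name. This gave 37 of 39429 probes. The alpha ring had 7 genes and 8 probes, the beta ring 7 genes and 8 probes, the ATPase ring 6 genes and 9 probes, the other base subunits 3 genes and 3 probes, and the lid 8 genes and 9 probes. All 37 probes were well above background on all 6 arrays, so every member entered the tests and none passed the filter on dim probes through 1 group alone.

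The proteasome consists of a barrel-shaped core particle capped by regulatory particles. The outer rings of the core are built from alpha subunits (Psma genes), which gate the entrance. The inner rings are built from beta subunits (Psmb genes), and of these Psmb5, Psmb6 and Psmb7 carry the chymotrypsin-like, caspase-like and trypsin-like active sites. The base of the regulatory particle holds a ring of ATPases (Psmc genes) that unfold substrates and push them into the core, and the non-ATPase subunits Psmd1, Psmd2 and Psmd4, of which Psmd4 binds ubiquitin chains. The lid (the other Psmd genes here) contains Psmd14, the enzyme that removes ubiquitin chains from substrates before they are degraded. The transcription factor Nrf1 (gene Nfe2l1) is known for raising transcription of the subunit genes when proteasome activity is impaired, and the related factor Nrf2 (gene Nfe2l2) has been linked to the same genes under oxidative stress.

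RNA from the hypothalamus of 16 weeks old male mice of the C57BL/6J background was hybridised to single-colour arrays, 2 for each of 3 genotypes. TrspFF mice, the controls, carry TrspFlox/Flox alleles without Cre. Trsp-RIPKO mice carry the same alleles with RIP-Cre, and Trsp-Ins1KO mice carry them with Ins1-Cre, so all 3 groups share the floxed gene. Trsp encodes the selenocysteine transfer RNA, which every selenoprotein requires, and the series addresses oxidative stress in the hypothalamus after its loss. Both drivers use insulin gene promoters: the first is known to be active in pancreatic beta cells and in some hypothalamic neurons, the second mainly in beta cells. Neither driver is general to the hypothalamus, and the loss of Trsp in this tissue was not measured here. Mice with Cre alone were not analysed here, and the labels do not say whether the arrays of a group came from separate animals. The p-values below therefore reflect how much these particular arrays vary, which may be technical variation alone.

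The names of the knockouts do not match across the deposited files. Each of the 6 columns of the value table matched 1 scanner array with a correlation of at least 0.999969 over 39311 probes, and both columns named Trsp-RIPKO matched arrays named Trsp-Ins1KO and the reverse. The names below follow the scanner files. If the table's names hold instead, the values of Trsp-RIPKO and Trsp-Ins1KO change places and Trsp-Ins1KO minus Trsp-RIPKO takes the opposite sign. Both TrspFF arrays were on slide 1 and all 4 knockout arrays on slide 2, so in each comparison with TrspFF the slide and the genotype cannot be told apart. Comparing the knockouts with each other stays within 1 slide. Both comparisons with TrspFF also share the same 2 control arrays. The 75th percentile of the signal lay between 1391 and 2137 on the 6 arrays, 68.9% to 72.0% of probes were well above background, and 0 were saturated. Of 14 tested hypothalamic marker genes, 13 or 14 were well above background on each array, with the oxytocin gene Oxt the brightest. The filter on dim probes makes such counts high: 21821 to 22397 of the 22863 tested genes were well above background on each array. The listed marker Otp was not kept by the filter, and Sim1 was well above background on 3 arrays.

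The promoters of 5 core subunits are shown first, because the values of Psmb3, Psmb4, Psmb5, Psmb6 and Psma4 are given in full below: in Trsp-Ins1KO minus TrspFF the brightest probes of these 4 beta ring genes gave positive differences and that of the alpha ring gene Psma4 a negative one. Each line is the 150 bases just before the RefSeq transcription start, on the strand of the gene, from build GRCm38.p6. Capitals mark 4 motifs searched on both strands where they lie wholly inside these bases: TGACNNNGC, the core letters of the antioxidant response element that Nrf factors bind, the box CCAAT, the letters CGGAAG (found in sites of ETS factors), and the box TATAAA.
Psmb3, plus strand of chr11:97703284-97703433: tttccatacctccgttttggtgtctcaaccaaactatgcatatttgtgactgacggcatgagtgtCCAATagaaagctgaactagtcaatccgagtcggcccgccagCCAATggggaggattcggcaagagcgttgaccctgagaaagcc
Psmb4, minus strand of chr3:94886959-94887108: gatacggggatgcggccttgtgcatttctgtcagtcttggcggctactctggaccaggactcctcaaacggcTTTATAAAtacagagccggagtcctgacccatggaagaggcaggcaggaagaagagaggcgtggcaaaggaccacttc
Psmb5, minus strand of chr14:54617996-54618145: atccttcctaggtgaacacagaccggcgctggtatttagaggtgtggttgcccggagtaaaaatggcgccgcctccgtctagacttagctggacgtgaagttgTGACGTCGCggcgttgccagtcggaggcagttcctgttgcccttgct
Psmb6, plus strand of chr11:70525207-70525356: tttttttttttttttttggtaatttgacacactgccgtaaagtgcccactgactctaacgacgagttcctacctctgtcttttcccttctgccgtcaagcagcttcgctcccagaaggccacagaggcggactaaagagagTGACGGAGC
Psma4, plus strand of chr9:54950709-54950858: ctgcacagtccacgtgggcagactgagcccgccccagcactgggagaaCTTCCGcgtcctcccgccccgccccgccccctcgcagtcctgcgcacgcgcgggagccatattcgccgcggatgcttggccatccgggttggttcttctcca
Psmb5 held the letters TGACGTCGC with the first base at position -47 from the start, and Psmb6 held TGACGGAGC at -9. Psmb3 had CCAAT at -85 and -43. In Psmb4 the capitals are TATAAA and its reverse complement, which overlap, and a CGGAAG match at -4 crosses the start and is left in lower case. Psma4 had CTTCCG, the reverse complement of CGGAAG, at -102.

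Promoter windows of 300 bases, 250 before and 50 after the start, were found for 25 of the 31 members in 27 windows. Windows for Psmb1, Psmb2, Psmb7, Psmc3, Psmd3 and Psmd7 were not matched. CGGAAG occurred in 17 of the 25 genes (68.0%; 18 of 27 windows) against 16.9% of all 32851 windows in the RefSeq table. GGGCGG, the letters of the GC box, occurred in 15 genes (60.0%) against 35.7% of all windows. The other motifs were near their share in all windows: TGACNNNGC in 4 genes (16.0% against 12.4%), CCAAT in 10 of the 25 genes (37.4% of all windows) and TATAAA in 3 of 25 (13.6% of all windows). The 4 genes with the antioxidant response element letters were Psmb5, Psmb6, Psmc6 and Psmd12. These matches describe letters in the windows and carry no test.

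In Trsp-Ins1KO most subunit transcripts read slightly higher than in TrspFF, in Trsp-RIPKO about as many read higher as lower, and no single subunit passed the test in any comparison. Levels are log2 processed signals minus the log2 75th percentile of the array, and a difference is the first-named group's mean level minus that of the second. Of the 31 members, 0 passed an adjusted p of 0.05 in Trsp-RIPKO minus TrspFF (limma), where 1.66% of all tested genes did. In Trsp-Ins1KO minus TrspFF 0 passed against 1.82% of all genes, and in Trsp-Ins1KO minus Trsp-RIPKO 0 against 0.0175%. The smallest adjusted p among the members was 0.134, 0.0993 and 0.263 in these comparisons. At an unadjusted p of 0.05, 3 members passed in the first comparison against 23.9% of all genes, 2 of them higher (9.71% of all genes) and 1 lower (14.2%). In the second 11 passed against 26% of all genes, 10 higher (13.3%) and 1 lower (12.6%). In the third 6 passed against 18.4%, with 6 higher (10.8%) and 0 lower (7.62%). With eBayes set to trend and robust, 1 member, Psmb4, passed in Trsp-Ins1KO minus TrspFF (adjusted p = 0.0490). The shares of all genes above belong to the fit without these settings. The share under trend and robust is not given here, so this call cannot be set against it. In bulk tissue, a lower level from fewer cells of a type cannot be told apart from less RNA per cell.

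The median difference over the 31 members was 0.02 in Trsp-RIPKO minus TrspFF, with 16 above 0 against 48.1% of all tested genes, and the median over all genes was -0.01. The members ranged there from -0.29 to 0.27, and both Trsp-RIPKO arrays lay above both TrspFF arrays for 13 members (28% of all genes) and below for 10 (30.2%). In Trsp-Ins1KO minus TrspFF the median was 0.20, 27 members were above 0 against 53.1% of all genes, the range was -0.23 to 0.42 and the median over all genes was 0.02. Both Trsp-Ins1KO arrays lay above both TrspFF arrays, with no overlap, for 24 members against 31.7% of all genes, and below for 2 against 26.4%. For 18 members they lay above all 4 other arrays, against 18.3% of all genes. The members were brighter than most tested genes, at a median percentile of 91.5 (61.2 to 98.1). Their median standard error was also smaller, 0.092 against 0.127 over all genes. The shares over all genes therefore come from dimmer and more variable genes, and shares over genes of like brightness were not computed. The size of the member differences was small in every case. The 95% intervals of the 31 members reached at most 0.59 in Trsp-RIPKO minus TrspFF and 0.75 in Trsp-Ins1KO minus TrspFF, both for Psmb7, and at least -0.54 (Psmb2) and -0.43 (Psma4). None of them therefore reached a 2-fold change in either direction.

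**Figure D1:**
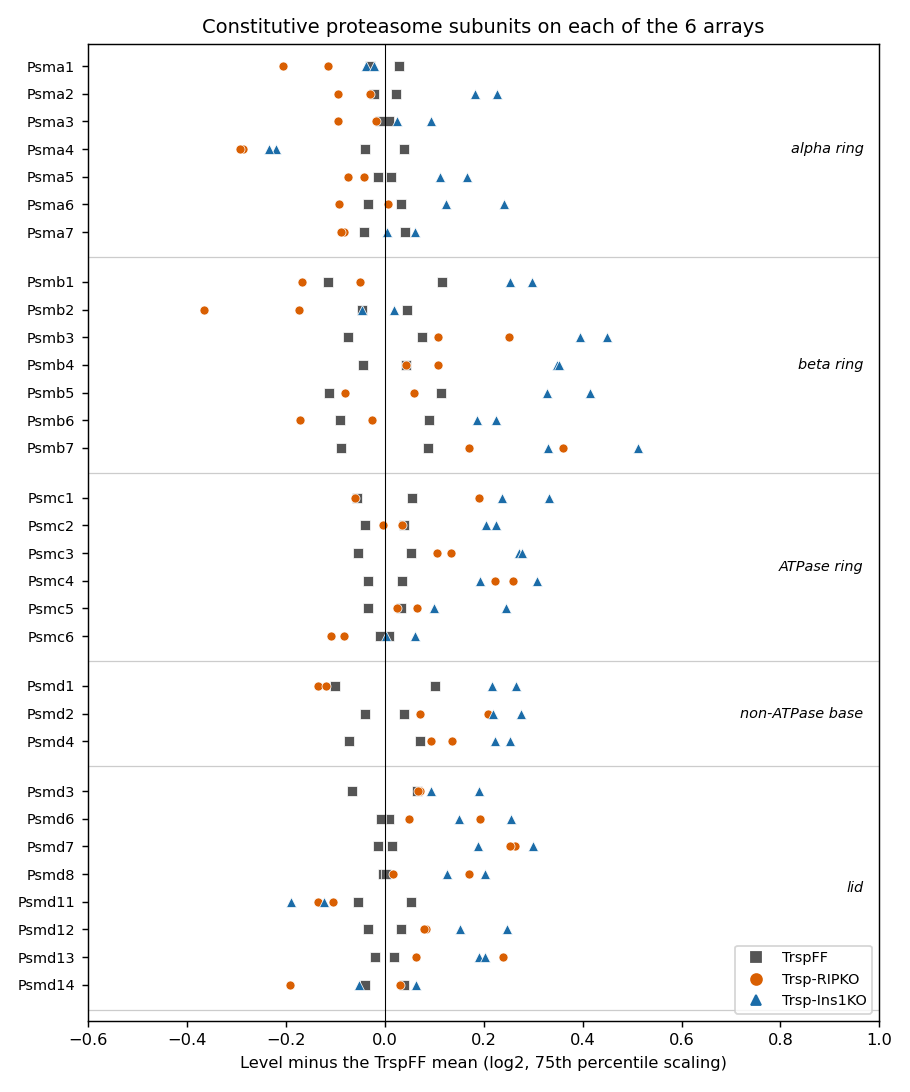
Level of each of the 31 subunit genes on each array minus the mean of both TrspFF arrays (horizontal axis, log2), with 1 symbol per array and genes grouped by subcomplex. The Trsp-Ins1KO triangles lie to the right of 0 for most genes, with Psma1, Psma4 and Psmd11 to the left, and the Trsp-RIPKO circles lie on both sides.

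The replicate arrays bear on how these medians read. Replicate 1 of TrspFF was above replicate 2 for 27 of the 31 members, with a median gap of 0.08. The corresponding gap was 0.01 for Trsp-RIPKO and -0.04 for Trsp-Ins1KO. The median over the members, taken on each array as the deviation from the TrspFF mean, was 0.04 and -0.04 on the TrspFF arrays, 0.04 and 0.01 on the Trsp-RIPKO arrays, and 0.19 and 0.23 on the Trsp-Ins1KO arrays. The members therefore shifted together between the TrspFF replicates by more than the Trsp-RIPKO median differed from TrspFF, and by less than the Trsp-Ins1KO median did.

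Transcripts of neighbouring tissue also differed between the groups. The mean level of 12 choroid plexus markers (brightest Enpp2) was 1.09 and 0.62 on the TrspFF arrays, 0.59 and 0.70 on the Trsp-RIPKO arrays, and 0.22 and -2.02 on the Trsp-Ins1KO arrays. The mean of 8 cortex and hippocampus markers (brightest Camk2n1) was lowest, at -3.32, on Trsp-Ins1KO replicate 2, and lay between -1.62 and -0.55 on the other 5 arrays. Striatal markers averaged -0.39 and 0.03 in TrspFF and between -1.13 and -0.98 on the 4 knockout arrays, and of the 9 (brightest Penk) the receptor genes Adora2a and Gpr6 fell in Trsp-Ins1KO (limma adjusted p = 0.0375 and 0.0469), Gpr6 also in Trsp-RIPKO (0.0294). The mean of the hypothalamic markers was 0.77 and 0.52 in TrspFF, 0.75 and 0.61 in Trsp-RIPKO, and 1.18 and 1.22 in Trsp-Ins1KO. The mean of 8 endothelial markers (brightest Ly6c1) lay between -0.91 and -0.52 in TrspFF, -0.42 and -0.37 in Trsp-RIPKO, and -1.22 and -1.06 in Trsp-Ins1KO, and that of 7 oligodendrocyte markers (brightest of these 7, Mag) was 2.50 and 2.84, 2.58 and 2.51, and 2.14 and 2.31. The mean of 7 astrocyte markers (brightest Aldoc) was 2.673 and 2.625 in TrspFF, 2.606 and 2.609 in Trsp-RIPKO, and 2.744 and 2.764 in Trsp-Ins1KO. For 7 microglial markers (brightest Csf1r) it was 1.035 and 0.832, 0.923 and 0.870, and 1.054 and 1.213. Both means were thus highest on the Trsp-Ins1KO arrays. In Trsp-Ins1KO minus TrspFF 6 astrocyte and 7 microglial genes were above 0 (53.1% of all genes), with medians of 0.10 and 0.24. Of these 4 cell type lists, 0 genes passed the threshold. Every list kept most of its markers well above background on every array, as the filter on dim probes favours. The lowest counts were 11 of 12 for choroid plexus and 6 of 8 for cortex and hippocampus, both on Trsp-Ins1KO replicate 2. Without that array the median over the proteasome members in Trsp-Ins1KO minus TrspFF was 0.19. The array that stays, Trsp-Ins1KO replicate 1, also had higher hypothalamic, astrocyte and microglial means than both TrspFF arrays. Its choroid plexus, striatal, endothelial and oligodendrocyte means were lower than theirs. Leaving an array out is therefore no test of tissue composition, and the part of composition in the member differences was not tested.

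The subcomplexes were not alike. In Trsp-Ins1KO minus TrspFF the median was 0.35 for the beta ring (6 of 7 genes above 0), 0.24 for the non-ATPase base (3 of 3), 0.23 for the ATPase ring (6 of 6), 0.18 for the lid (7 of 8) and 0.06 for the alpha ring (5 of 7). In Trsp-RIPKO minus TrspFF the medians were -0.01 for the beta ring (3 of 7 above 0), 0.12 for the base (2 of 3), 0.06 for the ATPase ring (5 of 6), 0.09 for the lid (6 of 8) and -0.06 for the alpha ring (0 of 7). With all 6 arrays the beta ring thus had the highest median in Trsp-Ins1KO and the alpha ring the lowest in both knockouts. The beta ring median in Trsp-RIPKO became 0.10 without TrspFF replicate 1 and 0.059 without Trsp-RIPKO replicate 2. Without TrspFF replicate 2 it was -0.12, below the alpha ring at -0.083. These are descriptions of lists, with no test between them.

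**Figure D2:**
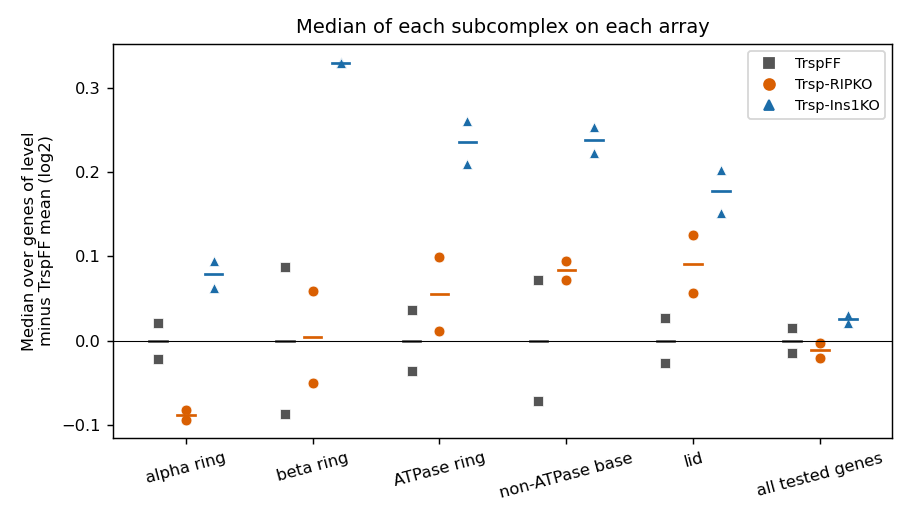
Median over the genes of each subcomplex, and over all tested genes, of the level minus the TrspFF mean (vertical axis, log2), with 1 symbol per array and a short line at the mean of each pair. Both Trsp-Ins1KO arrays have a beta ring median of 0.33 and alpha ring medians of 0.06 and 0.09; both Trsp-RIPKO arrays are below 0 for the alpha ring.

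The beta ring median minus the alpha ring median compares the inner and outer rings of the core on the same array, each as a deviation from the TrspFF mean. A constant offset of an array adds equally to both rings, but a change that varies with level need not. The gap was 0.07 and -0.07 on the TrspFF arrays, 0.14 and 0.04 on the Trsp-RIPKO arrays, and 0.27 and 0.23 on the Trsp-Ins1KO arrays. The TrspFF values mirror each other by construction, because the deviations are from their own mean. Both Trsp-Ins1KO arrays lay above the other 4. As a difference of contrast medians the gap was 0.29 in Trsp-Ins1KO minus TrspFF and 0.05 in Trsp-RIPKO minus TrspFF. Quantile normalization gave 0.26 and cyclic loess 0.27 for the former, and normexp background correction 0.19. Between the knockouts the gap was 0.14, with 0.097 under quantile normalization and 0.12 under cyclic loess. The 2 rings are present in equal numbers in a finished core particle, but transcript levels were measured here and no protein.

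Among the catalytic subunits, Psmb5, which carries the chymotrypsin-like site, read 5.30 and 5.07 in TrspFF, 5.25 and 5.11 in Trsp-RIPKO, and 5.60 and 5.52 in Trsp-Ins1KO. Both Trsp-Ins1KO arrays were above the other 4, which overlapped. The difference was 0.37 from TrspFF (SE 0.117, limma adjusted p = 0.144) and 0.38 from Trsp-RIPKO (adjusted p = 0.263). A dimmer Psmb5 probe read 3.11 and 2.87 in TrspFF, 3.22 and 3.26 in Trsp-RIPKO, and 3.46 and 3.48 in Trsp-Ins1KO. On that probe Trsp-RIPKO also lay above TrspFF, by 0.25, so for Trsp-RIPKO the pair of probes did not give the same picture (-0.01 on the brighter one), while for Trsp-Ins1KO both were higher. In the fit over all kept probes the dimmer probe differed by 0.48 in Trsp-Ins1KO minus TrspFF (limma adjusted p = 0.0938). These were the largest difference and the smallest adjusted p of all member probes in that comparison.

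Psmb6, the caspase-like subunit, read 4.65 and 4.47 in TrspFF, 4.54 and 4.39 in Trsp-RIPKO, and 4.75 and 4.79 in Trsp-Ins1KO. Its Trsp-Ins1KO arrays were again the highest, by 0.21 over TrspFF (SE 0.107, adjusted p = 0.287) and 0.30 over Trsp-RIPKO (adjusted p = 0.264). Psmb7, the trypsin-like subunit, read 2.43 and 2.26 in TrspFF, 2.52 and 2.71 in Trsp-RIPKO, and 2.68 and 2.86 in Trsp-Ins1KO. Both knockouts lay above TrspFF without overlap, as they did on the dimmer probe of Psmb5. The differences were 0.27 in Trsp-RIPKO (SE 0.126, adjusted p = 0.274) and 0.42 in Trsp-Ins1KO (adjusted p = 0.134), and the knockouts overlapped each other. The RefSeq table lists 6 pseudogene entries named after 4 of the members, Psma5, Psmb5, Psmb6 and Psmb7, and whether the probes of these genes also bind pseudogene transcripts was not tested.

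The other beta subunits are structural parts of the inner ring. By brightest probe, Psmb4 had the smallest adjusted p of all members: it read 4.59 and 4.50 in TrspFF, 4.66 and 4.59 in Trsp-RIPKO, and 4.90 and 4.90 in Trsp-Ins1KO. The Trsp-Ins1KO arrays lay apart from the other 4, by 0.35 from TrspFF (SE 0.083, 95% interval 0.14 to 0.57, adjusted p = 0.0993) and by 0.27 from Trsp-RIPKO (adjusted p = 0.263). Psmb3 read 3.96 and 3.81, then 4.14 and 3.99, then 4.28 and 4.33 in the same order of groups. Its 3 groups did not overlap, and Trsp-Ins1KO differed from TrspFF by 0.42 (SE 0.102, adjusted p = 0.102). Among the brightest probes, this and the difference of Psmb7 were the largest of any member in that comparison.

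Psmb1 and Psmb2 had lower means in Trsp-RIPKO. Psmb1 read 2.98 and 2.75 in TrspFF, 2.70 and 2.82 in Trsp-RIPKO, and 3.16 and 3.12 in Trsp-Ins1KO, with Trsp-Ins1KO above the other 4 arrays. The difference between the knockouts was 0.38 (SE 0.113, adjusted p = 0.263), as large as that of Psmb5. Psmb2 read 0.03 and -0.06 in TrspFF, -0.38 and -0.19 in Trsp-RIPKO, and 0.00 and -0.06 in Trsp-Ins1KO. It was the only beta subunit with a negative difference in Trsp-Ins1KO minus TrspFF (-0.01), and its Trsp-RIPKO arrays were the lowest, by -0.27 from TrspFF (SE 0.104, adjusted p = 0.209).

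The alpha ring is the gate of the core. In Trsp-RIPKO all 7 genes were below the TrspFF mean and 6 had both arrays below both TrspFF arrays, against 30.2% of all genes, although median scaling of the arrays turned the ring's median from -0.06 to 0.05. Without Psma4 the differences were small: they ran from -0.16 (Psma1) to -0.04 (Psma6) in Trsp-RIPKO and from -0.03 (Psma1) to 0.20 (Psma2) in Trsp-Ins1KO. Psma2 read 4.43 and 4.38 in TrspFF, 4.38 and 4.31 in Trsp-RIPKO, and 4.59 and 4.63 in Trsp-Ins1KO. In each of the 7 genes both Trsp-Ins1KO arrays lay above both Trsp-RIPKO arrays, against 35.8% of all genes.

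Psma4 had the most negative differences of the ring in both knockouts, and its probes disagreed. The brighter probe read 1.88 and 1.80 in TrspFF, 1.55 and 1.55 in Trsp-RIPKO, and 1.62 and 1.61 in Trsp-Ins1KO. The TrspFF arrays lay above the other 4 on this probe. The differences were -0.29 in Trsp-RIPKO (SE 0.080, adjusted p = 0.134, the smallest in that comparison) and -0.23 in Trsp-Ins1KO (adjusted p = 0.170). The second probe, annotated to the same transcript, read 1.54 and 1.32 in TrspFF, 1.38 and 1.38 in Trsp-RIPKO, and 1.52 and 1.54 in Trsp-Ins1KO. Here the groups overlapped and the differences were -0.05 and 0.10, so the lower reading of Psma4 rests on 1 of its probes.

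All 6 ATPase genes were higher in Trsp-Ins1KO than in TrspFF, by 0.03 (Psmc6) to 0.29 (Psmc1), and in 5 of them the arrays did not overlap, against 31.7% of all genes. Psmc4 had the largest difference of the ring in Trsp-RIPKO: it read 2.40 and 2.47 in TrspFF, 2.70 and 2.66 in Trsp-RIPKO, and 2.63 and 2.74 in Trsp-Ins1KO. Both knockouts lay above TrspFF and overlapped each other, with differences of 0.24 (SE 0.088, adjusted p = 0.194) and 0.25 (adjusted p = 0.168). Psmc3 read 5.13 and 5.03 in TrspFF, 5.22 and 5.19 in Trsp-RIPKO, and 5.35 and 5.36 in Trsp-Ins1KO, and a second probe of it was also higher in both knockouts, by 0.21 and 0.22. Psmc6 read 1.43 and 1.42, then 1.34 and 1.31, then 1.43 and 1.49, and was the only ATPase gene whose brightest probe gave a negative difference in Trsp-RIPKO (-0.10). Psmc2 had probes of opposite sign in Trsp-RIPKO, 0.02 on the brighter and -0.12 on the dimmer, while both were positive in Trsp-Ins1KO (0.22 and 0.11).

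The 3 non-ATPase base subunits differed from TrspFF by nearly the same amount in Trsp-Ins1KO, 0.24 for Psmd1 and Psmd4 and 0.25 for Psmd2. Psmd1, a scaffold subunit, read 3.72 and 3.52 in TrspFF, 3.48 and 3.50 in Trsp-RIPKO, and 3.88 and 3.83 in Trsp-Ins1KO. Its knockouts lay on opposite sides of TrspFF, and the difference between them was 0.37 (SE 0.101, adjusted p = 0.263). Psmd4, the ubiquitin receptor, read 4.34 and 4.20, then 4.36 and 4.40, then 4.49 and 4.52, with the groups in that order and without overlap.

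In the lid 6 of 8 genes had both Trsp-Ins1KO arrays above both TrspFF arrays, against 31.7% of all genes. Psmd7, a structural partner of Psmd14, read 2.03 and 2.06 in TrspFF, 2.31 and 2.30 in Trsp-RIPKO, and 2.24 and 2.35 in Trsp-Ins1KO. Both knockouts were above TrspFF, by 0.26 (SE 0.084, adjusted p = 0.168) and 0.24 (adjusted p = 0.164), and overlapped each other. Psmd11, a scaffold subunit, was the only lid gene lower in Trsp-Ins1KO: it read 0.87 and 0.76 in TrspFF, 0.68 and 0.71 in Trsp-RIPKO, and 0.63 and 0.69 in Trsp-Ins1KO. Psmd14, the deubiquitinase, read 0.73 and 0.66, then 0.50 and 0.73, then 0.64 and 0.76, and all 3 groups overlapped. Psmd12 had probes of opposite sign: the brighter was 0.08 in Trsp-RIPKO and 0.20 in Trsp-Ins1KO, and the dimmer -0.38 (unadjusted p = 0.031) and -0.23. In a fit over all 28065 kept probes, 0 of the 37 member probes passed an adjusted p of 0.05 in Trsp-RIPKO minus TrspFF (1.49% of all probes), Trsp-Ins1KO minus TrspFF (1.66%) or Trsp-Ins1KO minus Trsp-RIPKO (0.0143%), and 5, 13 and 7 passed an unadjusted p of 0.05 (23.9%, 25.7% and 18.2%). Over the 6 members with several probes, the sign differed between probes for 3 genes in Trsp-RIPKO minus TrspFF, 2 in Trsp-Ins1KO minus TrspFF and 0 between the knockouts.

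**Figure D3:**
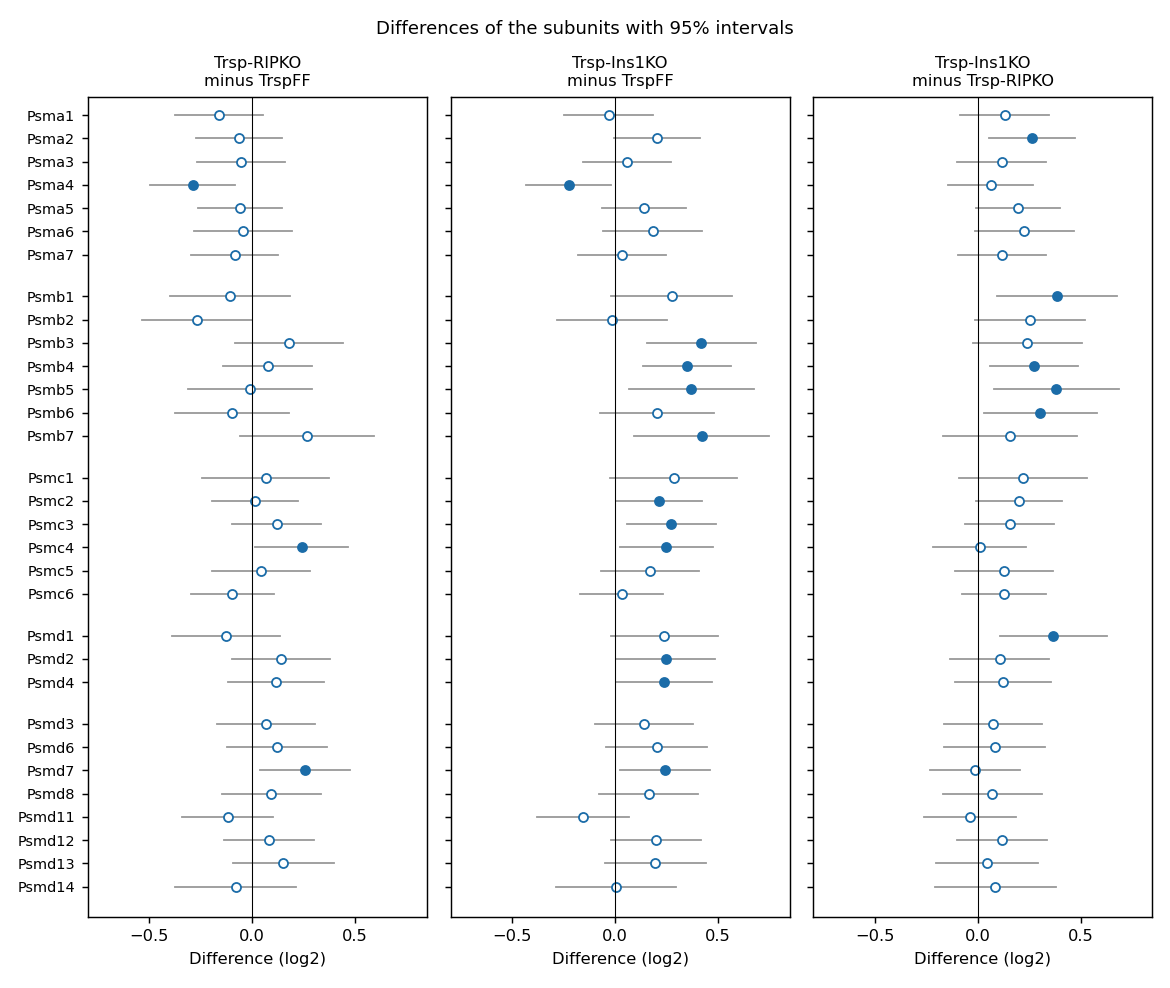
Difference of each subunit gene in the 3 comparisons (horizontal axis, log2) with its 95% interval from limma; filled circles have an unadjusted p under 0.05. The filled circles number 3, 11 and 6 from left to right, none passed the adjusted threshold, and no interval reaches 1 or -1.

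Within the slide that held both knockouts, the members read higher in Trsp-Ins1KO than in Trsp-RIPKO. The median difference was 0.13 and 29 of 31 members were above 0, against 57.9% of all genes and an all-gene median of 0.05. For 23 members both Trsp-Ins1KO arrays were above both Trsp-RIPKO arrays, against 35.8% of all genes, and for 0 the reverse, against 22.9%. Scaling moved these values: with quantile normalization the median was 0.034, 21 members were above 0 (51.5% of all genes), 14 lay above without overlap (29.9%) and 2 below (27%). With cyclic loess the median was 0.035, 23 members were above 0 (50.6%), 13 lay above without overlap (29.6%) and 3 below (27.6%). The beta ring again had the largest median, 0.27, followed by the ATPase ring at 0.14, the alpha ring at 0.13, the base at 0.12 and the lid at 0.07. Both negative members were lid genes, Psmd11 (-0.04) and Psmd7 (-0.01). The members with an unadjusted p under 0.05 were Psma2, Psmb1, Psmb4, Psmb5, Psmb6 and Psmd1. With the names of the deposited table this difference would be that of Trsp-RIPKO over Trsp-Ins1KO.

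How the arrays were scaled changed the size of these differences. Median scaling moved the median of all tested genes to 0.09 in Trsp-RIPKO minus TrspFF and 0.11 in Trsp-Ins1KO minus TrspFF, and the member medians moved with it, to 0.13 and 0.29. Quantile normalization lowered the member median in Trsp-Ins1KO minus TrspFF to 0.09 with 23 of 31 above 0, and cyclic loess, chosen after seeing the data, to 0.08 with 22. With quantile normalization 19 members had both Trsp-Ins1KO arrays above both TrspFF arrays, against 32.9% of all genes. The alpha ring median in that comparison turned from 0.06 to -0.08 with quantile normalization and -0.09 with loess, while the beta ring median remained above 0, at 0.18 with both. The order of the rings, with beta above alpha, was present under all 5 scalings with all 6 arrays, but in Trsp-RIPKO minus TrspFF the gap of 0.05 turned to -0.041 without TrspFF replicate 2.

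**Figure D4:**
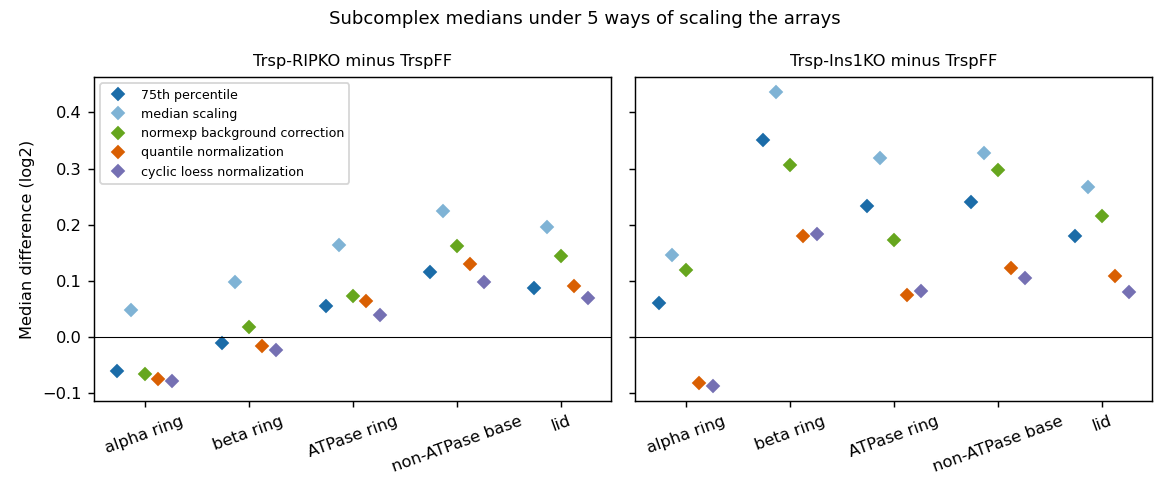
Median difference from TrspFF (vertical axis, log2) of each subcomplex under 5 ways of scaling the arrays, for Trsp-RIPKO on the left and Trsp-Ins1KO on the right. In Trsp-Ins1KO the beta ring lies highest under every scaling, and the alpha ring falls below 0 under quantile and cyclic loess normalization.

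Of 39 other genes listed for the ubiquitin-proteasome pathway, 36 were tested. Of these, 1 passed the threshold, in Trsp-Ins1KO minus TrspFF, where 1.82% of all tested genes did. The inducible catalytic subunits replace the constitutive ones in the immunoproteasome: 0 of 3 passed, and the medians were 0.31 in Trsp-RIPKO and 0.33 in Trsp-Ins1KO. Psmb8, the inducible counterpart of Psmb5, read -2.12 and -2.30 in TrspFF, -1.82 and -1.52 in Trsp-RIPKO, and -1.54 and -1.91 in Trsp-Ins1KO. Both knockouts lay above TrspFF, by 0.54 (SE 0.180, adjusted p = 0.174) and 0.48 (adjusted p = 0.185). Psmb10, the counterpart of Psmb7, was 0.33 higher in Trsp-Ins1KO (adjusted p = 0.168) and 0.05 in Trsp-RIPKO, and Psmb9, the counterpart of Psmb6, 0.07 and 0.31. The tissue-specific subunits Psma8, of the testis, and Psmb11, of the thymus, had 1 probe each, neither kept by the filter.

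The activators and their inhibitor showed both directions, with 0 of 5 past the threshold. Psme1, a subunit of the interferon-inducible activator, was 0.30 higher in Trsp-RIPKO and 0.49 in Trsp-Ins1KO (adjusted p = 0.100). Psme3, the nuclear activator, was lower, by -0.60 (adjusted p = 0.102) and -0.34, and Psme4 likewise by -0.29 and -0.43 (adjusted p = 0.0754). Of 8 assembly chaperones 0 passed, with medians of 0.07 and 0.17. Psmg3 was at 0.17 and 0.43 (adjusted p = 0.0934), Psmd10 at 0.11 and 0.35, and Psmg1, which helps build the alpha ring, at -0.24 and 0.09. Among 6 further subunits and bound proteins 0 passed: the deubiquitinase Usp14 was at -0.02 and 0.25, the small lid subunit Sem1 at 0.01 and 0.29, and the ubiquitin receptor Adrm1 at -0.18 and -0.36.

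Ubiquitin genes and shuttle factors, which carry tagged proteins to the proteasome, gave 0 of 9 past the threshold and medians of 0.00076 in Trsp-RIPKO and 0.16 in Trsp-Ins1KO. All 9 were above 0 in Trsp-Ins1KO, against 53.1% of all genes. The shuttle factor Rad23b was at 0.26 and 0.35 (adjusted p = 0.128) and Ubqln2 at 0.23 and 0.28 (adjusted p = 0.121). In the list of Nrf1, Nrf2 and genes that act on them, 0 of the 5 tested genes were above 0 in either knockout. The shares of all genes above 0 were 48.1% in Trsp-RIPKO and 53.1% in Trsp-Ins1KO. The medians of the list were -0.21 and -0.17, and its differences ran from -0.38 to -0.0037 and from -0.59 to -0.05. Nfe2l1 itself was at -0.28 and -0.07, and Nfe2l2 at -0.21 and -0.23.

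Keap1, the adaptor that targets Nrf2 for degradation by the proteasome, was the pathway gene that passed. It read 1.97 and 1.99 in TrspFF, 1.62 and 1.57 in Trsp-RIPKO, and 1.41 and 1.37 in Trsp-Ins1KO. The 3 groups did not overlap and the replicates differed by at most 0.05. Keap1 fell by 0.59 in Trsp-Ins1KO (SE 0.078, limma adjusted p = 0.0448), and the difference in Trsp-RIPKO was -0.38 (adjusted p = 0.0867). The call was lost with normexp background correction (-0.38, adjusted p = 0.0712), with median scaling (-0.50, 0.0708) and without any 1 of the 6 arrays (adjusted p between 0.0743 and 0.187).

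**Figure D5:**
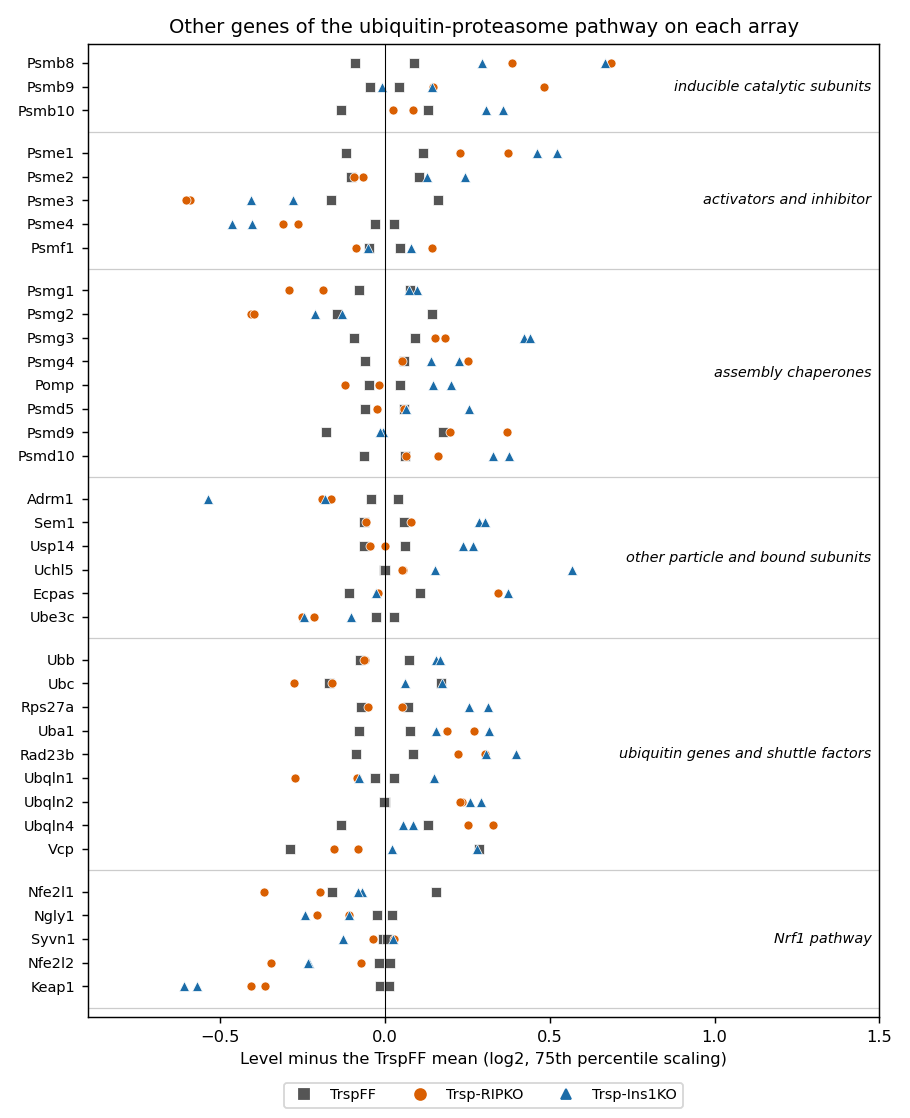
Level of each of the 36 other pathway genes on each array minus the TrspFF mean (horizontal axis, log2), grouped by list, with 1 symbol per array. Keap1, in the last row, has both knockouts to the left of 0, and the triangles of Trsp-Ins1KO lie to the right of 0 for all but 1 of the ubiquitin and shuttle genes.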

How the data were processed

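Hypothalamic RNA of 3 genotypes was measured on 6 Cy3 arrays (Agilent), 2 per genotype. Per the file headers, the scans were processed with Agilent Feature Extraction 10.7.3.1, and the deposited scanner files hold the background-subtracted intensity of each spot with gene annotation of the mm9 mouse genome. A value table, also deposited, gives the same probes as log2 values centred per probe, and its scaling by the authors is not stated there. Probe sequences were not used here.

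Of 43020 non-control spots, unflagged spots of a probe were averaged into 39429 probes. Levels are log2 intensity minus the array's 75th percentile. Probes were kept if both arrays of any group were well above background, symbols came through transcript accessions and a GRCm38.p6 gene table (26049 probes), and the brightest kept probe stood for a gene. Probes without a symbol were grouped by their annotated name and counted as genes. Limma 3.58.1 in R 4.3.3 was fitted to all 6 arrays over 22863 genes (lmFit, eBayes, Benjamini-Hochberg at 0.05), and once over all kept probes. The fit was also run on simulated data with independent noise for each gene and no slide effect. These arrays differ in both respects, so that run does not bear on the calls here. The number of arrays limits the precision: the median standard error over the members was 0.092.

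The members and the lists were chosen with earlier results of these data known. Members described in full are those among the 3 smallest p or 3 largest differences of a comparison, Psmb5, Psmb6 and Psmb7, and any with probes of opposite sign both at an unadjusted p under 0.05 (none); further members illustrate their subcomplex. Of each pathway list, genes past the threshold are named, filled up by smallest p to at most 3, and of each marker list the brightest gene and those past the threshold. Some list genes are not reported here. Replicate numbers did not pair the arrays: the correlations of deviations between same-numbered arrays were -0.03, 0.09 and -0.02.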

Additional observations from a re-analysis of the deposited data

How the results depend on the processing

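With 2 arrays per group, a slide that follows the control group and exchanged knockout names, only differences between the knockouts are free of the slide, and their direction depends on which names hold. The counts of members past the threshold stayed at 0 under every alternative run, except for 1 in Trsp-Ins1KO minus TrspFF with trend and robust. The shares of all genes past the threshold in these runs are not given here. With the replicate block 0 members passed in each comparison (2, 6 and 6 at an unadjusted p of 0.05). The block adds a term to the fit of every gene, and the share of all genes under it is not given. These counts are therefore not comparable with those of the reported fit. Slide could not be fitted as a block, because it follows the control group and all knockout arrays share a slide. A fit to the knockout arrays alone gave 0 members between the knockouts. In what follows, medians are given for all members, then the alpha ring, beta ring, ATPase ring, base and lid. Quantile normalization gave 0.092, -0.083, 0.18, 0.075, 0.12 and 0.11 in Trsp-Ins1KO minus TrspFF and 0.034, 0.038, 0.13, 0.013, -0.00394 and -0.00171 in Trsp-Ins1KO minus Trsp-RIPKO. Cyclic loess, chosen after seeing the data, gave 0.076, -0.088, 0.18, 0.082, 0.11 and 0.081 in the former and 0.035, 0.035, 0.16, 0.030, 0.000243 and -0.00728 in the latter. Median scaling gave 0.13, 0.047, 0.10, 0.16, 0.22 and 0.20 in Trsp-RIPKO minus TrspFF with 26 members above 0, and in Trsp-Ins1KO minus TrspFF 0.29 for all members, 0.15 for the alpha ring, 0.32 for the ATPase ring, 0.33 for the base and 0.27 for the lid. Normexp gave 0.12 for the alpha ring, 0.17 for the ATPase ring and 0.19 for beta minus alpha in Trsp-Ins1KO minus TrspFF. The mean of probes gave 0.19 for the ATPase ring there and 0.14 for beta minus alpha in Trsp-RIPKO minus TrspFF. The deposited table under its own names gave 0.015, -0.063, -0.012, 0.054, 0.11 and 0.086 in Trsp-Ins1KO minus TrspFF (16 above 0, beta minus alpha 0.051), 0.20, 0.060, 0.35, 0.23, 0.24 and 0.18 in Trsp-RIPKO minus TrspFF (27 above 0, beta minus alpha 0.29), and -0.13, -0.13, -0.28, -0.14, -0.12 and -0.073 between the knockouts (2 above 0, beta minus alpha -0.14). By construction it reversed Psmb5 in Trsp-Ins1KO minus TrspFF (-0.012) and, between the knockouts, Psma2 (-0.27), Psmb1 (-0.39), Psmb4 (-0.28), Psmb5 (-0.38), Psmb6 (-0.31), Psmd1 (-0.37) and Keap1 (0.20). For the other changes the cause was not tested.

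Leaving out each array in turn, the medians ran in Trsp-Ins1KO minus TrspFF from 0.17 to 0.23 (all members), 0.05 to 0.09, 0.26 to 0.39, 0.20 to 0.26, 0.17 to 0.31 and 0.15 to 0.21, with beta minus alpha from 0.21 to 0.32 and 25 to 28 members above 0. In Trsp-RIPKO minus TrspFF they ran from -0.02 to 0.08, -0.09 to -0.04, -0.12 to 0.10, 0.011 to 0.10, 0.04 to 0.18 and 0.06 to 0.13, with beta minus alpha from -0.041 to 0.15 and 15 to 18 above 0. Between the knockouts they ran from 0.12 to 0.16, 0.12 to 0.17, 0.25 to 0.31, 0.11 to 0.17, 0.11 to 0.18 and -0.00749 to 0.12, with beta minus alpha from 0.13 to 0.14 and 26 to 30 above 0. The sign of a median turned without TrspFF replicate 2 (all members -0.023 and beta minus alpha -0.041 in Trsp-RIPKO minus TrspFF), without TrspFF replicate 1 or Trsp-RIPKO replicate 2 (beta ring 0.10 and 0.059 in the same comparison) and without Trsp-RIPKO replicate 1 (lid -0.00749 between the knockouts).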
